A study of Homo sapiens with 42 samples.

Results

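Vehicle-treated LM2 cells harvested at 24 h were compared with vehicle-treated LM2 cells harvested at 6 h, 3 libraries in each group and 6 of the 42 libraries of the series. LM2 is a derivative of the human breast cancer line MDA-MB-231 that the labels describe as highly metastatic to the lungs. The libraries were chosen by their labels and not by any measured value. Both groups received DMSO for 6 h, in a volume equal to that used for a compound named T4. The 6 h cells were harvested at the end of that exposure, while the 24 h cells received fresh medium and were harvested later. Time in culture, time since the vehicle was removed and the medium change therefore differ together between the groups and cannot be told apart. All cells were grown in high glucose DMEM with 10% FBS, and total RNA was sequenced. Vehicle cells at 72 h, and T4 cells given 3 µM for 6 h and harvested at 24 or 6 h, with 3 libraries in each group, are used beside them. Whether the replicates of a group were separate cultures is not stated in the labels. The spread behind each p-value may therefore be technical.

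The assay was QuantSeq REV, in which an oligo(dT) primer starts synthesis at a poly(A) stretch and the read gives the last bases before it. Each read thus marks a transcript 3′ end, and the reads of a gene can be summed to its level or split among its ends. Fresh medium is known to bring growth factors, glucose and amino acids, while cells left in the same medium use them up. The integrated stress response is the route by which a shortage of amino acids, among other stresses, raises the transcription factor ATF4 and its targets, which supply and import amino acids. Transforming growth factor beta, which serum contains, raises another set of genes through SMAD proteins, and heat shock proteins fold other proteins and rise when folding is disturbed.

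The 24 h libraries held 1.43, 1.64 and 1.39 M assigned reads, and the 6 h libraries 1.29, 1.31 and 1.61 M (M stands for mega). Between 1.77 and 3.12% of the reads in these 6 libraries belonged to entries that could not be matched to a gene and were left out. SNAI2 and TGFBI were listed at 0 in the 6 libraries among 19 mesenchymal and MDA-MB-231 markers, whose summed level was 3016 to 4079 CPM at 24 h and 3264 to 3505 CPM at 6 h. Marker values are counts per M reads matched to genes (CPM), unscaled, while CPM values further on are also scaled by the trimmed mean of M values (TMM). Of 15 luminal and epithelial markers ESR1, PGR, FOXA1 and GRHL2 were at 0 in all 6 libraries and 8 were under 1 CPM, and their summed level was 232.7 to 297.9 CPM at 24 h and 176.6 to 205.9 CPM at 6 h. Most of that sum was KRT19, a keratin of simple epithelia, with 212.0, 239.4 and 275.3 CPM at 24 h, against 155.1, 176.3 and 185.4 CPM at 6 h; its part in the results was not tested. Of 16 immune markers 10 were at 0 and 15 were under 1 CPM, and of 14 fibroblast and endothelial markers 10 were at 0 and 13 were under 1 CPM. Among the 18 libraries that share one fit, 2 from T4-treated cells stood apart from the rest, T4 6 h replicate 3 with a TMM factor of 0.499 and T4 72 h replicate 2 with 1.448. They are in neither vehicle group but enter the shared estimate of the spread, so results are given with them, without them (16 libraries) and with the 6 vehicle libraries alone.

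The groups differed most broadly in reads that the quantification divided among several 3′ ends. An expected count is whole where each read was given to 1 entry, and it is not whole where reads were shared out. Entries with non-whole values took 29.4, 32.4 and 24.7% of the assigned reads at 24 h, against 37.0, 40.5 and 40.4% at 6 h. The groups did not overlap, and the means were 28.8 ± 3.9% at 24 h and 39.3 ± 2.0% at 6 h (SD, n = 3 each). The two-sided exact permutation test gave p = 0.1, the smallest value that 3 libraries against 3 allow. Such entries numbered 2324 of 89065.

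Many of the shared ends carried one sequence. The last 100 bases of the transcripts behind shared ends were searched for runs of 13 bases that contain A, C, G and T. The most frequent run was present in 337 of 1064 such ends (31.7%), counting ends with at least 180 reads over the 18 libraries. It was present in 10 of 4981 ends with whole values (0.20%). The sequence was chosen for its frequency in the shared ends, so the choice favours a higher rate there. Its reverse complement was found in 6 of the 1064 shared ends (0.56%).

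The ends with the most reads of this class lay in genes on different chromosomes, such as TUBD1 on chromosome 17 (59859482 to 59892945, minus strand, GRCh38) and PTK6 on chromosome 20 (63528001 to 63537370, minus strand). The shared TUBD1 end, of the gene for delta-tubulin, was listed with 11263, 14101 and 8704 reads per M at 24 h, against 16057, 19228 and 18827 at 6 h. The shared PTK6 end, of the gene for a cytoplasmic tyrosine kinase, was listed with 3063, 3780 and 2154 reads per M at 24 h, against 4275, 4918 and 5009 at 6 h. The 24 h libraries were lower for both ends, with no overlap, and none of these reads can be credited to a single gene. The POM121L7P end, of a processed pseudogene, had 3231, 4012 and 2545 reads per M at 24 h, against 4682, 5310 and 5175 at 6 h.

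Together the shared ends with this sequence took 12.1, 14.5 and 9.3% of the reads at 24 h, against 17.1, 19.7 and 19.6% at 6 h. The 78 ends that carried the same letters but had whole values took 0.062 ± 0.004% at 24 h and 0.061 ± 0.001% at 6 h (SD, n = 3 each). The two-sided exact permutation test gave p = 0.9. By definition these ends held no divided reads, and they took few reads, so they cannot serve as a contrast to the shared ends. Shared ends of ribosomal protein genes ran the other way, with 3.74 ± 0.21% of the reads at 24 h and 3.05 ± 0.12% at 6 h. The lower share at 24 h was thus not a feature of all shared reads. It was also not confined to ends with the sequence. Other shared ends took 12.8 ± 0.7% at 24 h and 14.7 ± 0.2% at 6 h. Shared entries named by a position took 4.1 ± 0.6% at 24 h and 5.8 ± 0.4% at 6 h. Neither overlapped between the groups. In the vehicle cells at 72 h the share of all shared entries was 45.3, 25.5 and 36.5%, so these libraries overlapped both earlier groups.

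**Figure D1:**
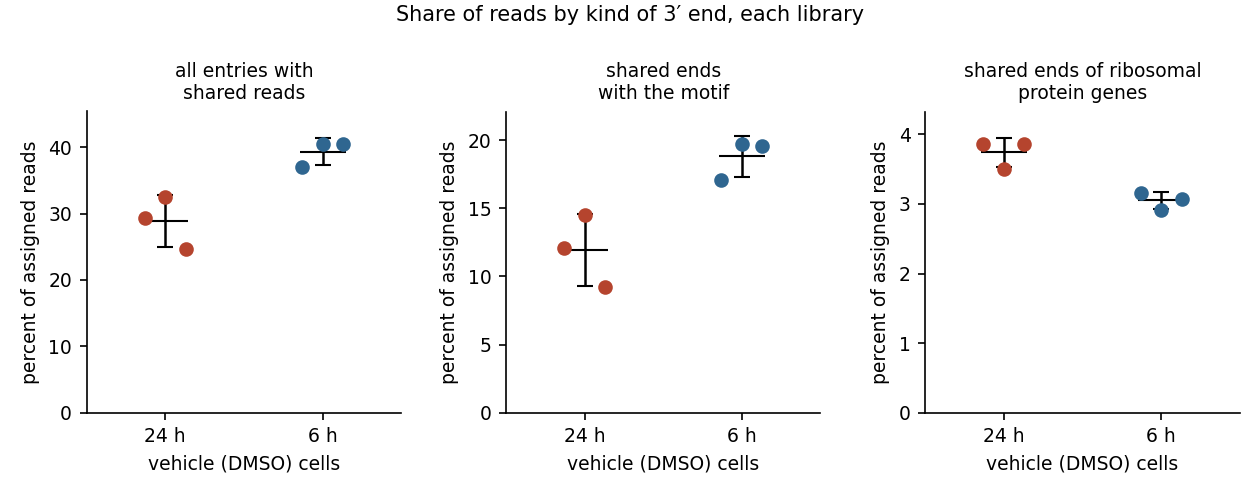
Share of assigned reads (percent, vertical axis) in vehicle LM2 libraries at 24 h (red) and 6 h (blue), for all entries with shared reads, for shared ends with the 13-base sequence and for shared ends of ribosomal protein genes. Points are libraries, and lines with bars are means with SD (n = 3 each). The 24 h points lie below the 6 h points in the first 2 panels (28.8% against 39.3% on average over all shared entries) and above them in the third (3.74% against 3.05%).

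Gene levels were then tested as sums over each gene's entries. In the fit over all 18 libraries no gene of 8035 passed an adjusted p of 0.05 (edgeR quasi-likelihood test with Benjamini-Hochberg adjustment; 0% called in either direction). At an unadjusted p under 0.05, 181 genes were higher (2.25%) and 305 lower (3.8%) at 24 h. DESeq2 called 3 genes, all higher, but gave no adjusted p to 7321 of the 8035, and limma-voom called 0. The smallest adjusted p of the edgeR fit was 0.16, for ANGPTL4. Genes whose 24 h libraries all lay above the 6 h libraries numbered 682 (8.49%), and those whose 24 h libraries all lay below numbered 1103 (13.7%).

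The spread that this fit shares among its libraries was wider than that of the vehicle cells. The biological coefficient of variation was 24.8% over the 18 libraries, 16.5% over the 16 libraries and 14.1% over the 6 vehicle libraries. With the 6 vehicle libraries alone, edgeR called 617 of 6983 genes (8.84%), 33 of them higher (0.473%) and 584 lower (8.36%) at 24 h. With the 16 libraries it called 5 of 8227 (0.0608%). Among them HSPA8 was higher, and ANGPTL4, OR1A1 and AP000640.1 were lower.

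The genes called lower in the fit of the 6 vehicle libraries were mostly those with shared reads. Of the 584, 572 had at least 50% of their reads in shared entries. Among 330 tested genes whose shared reads lay mainly at ends with the 13-base sequence, 226 were called lower and 0 higher, with a median log2 change of −0.76 and quartiles of −0.84 and −0.64. Among 901 other genes with shared reads, 346 were called lower and 2 higher, with a median of −0.62. Among 5693 uniquely counted genes, which had less than 10% of their reads in shared entries, 31 were called higher and 12 lower, with a median of 0.10. Reads of the first class were divided among alike ends. Its narrow quartiles and 226 calls are therefore not separate results for each gene.

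**Figure D2:**
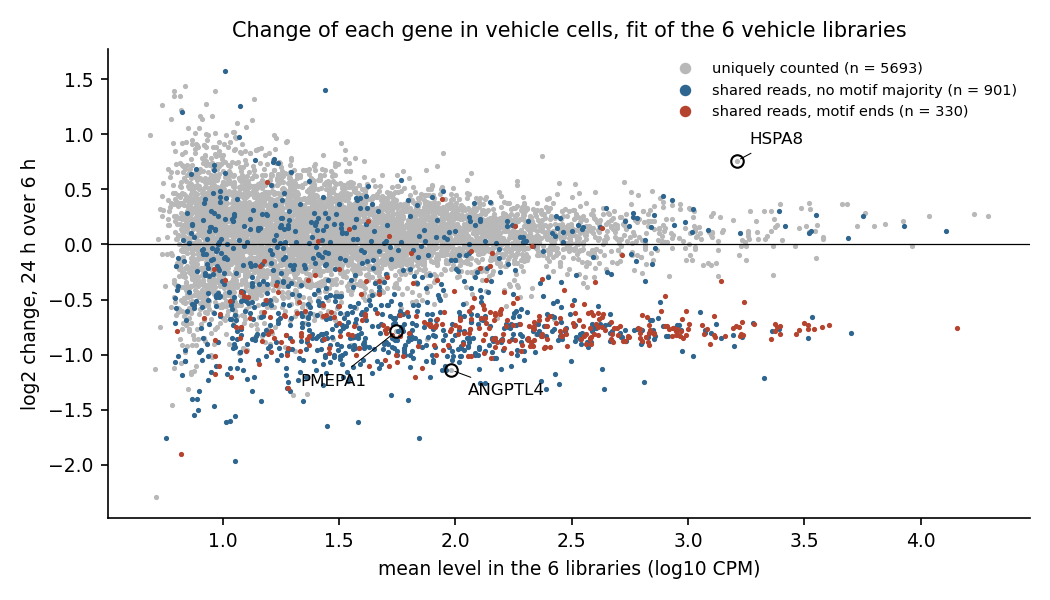
Log2 change of each tested gene (24 h over 6 h, vertical axis) against its mean level in log10 CPM (horizontal axis), in the fit of the 6 vehicle libraries. Red points are genes with shared reads at ends with the 13-base sequence (n = 330), blue points other genes with shared reads (n = 901) and grey points uniquely counted genes (n = 5693); circles mark 3 named genes. The red points form a narrow band around −0.76, while the grey points lie around 0.10.

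The largest changes in this fit show the same split, by a rule applied to it after its results were seen. Of the 12 named protein-coding genes with the largest falls, 11 had at least 92.5% of their reads in shared entries. OR1A1, an olfactory receptor gene, had 31.8, 38.8 and 22.4 CPM at 24 h, against 99.9, 114.1 and 109.9 CPM at 6 h (log2 change −1.76 ± 0.19 SE, adjusted p = 5.9e-04, edgeR). C12orf50 had 1376, 1719 and 672 CPM at 24 h, against 2950, 2914 and 3041 CPM at 6 h. For both genes all reads lay in shared entries, so the levels belong to groups of alike ends rather than to these genes. OR10G3, another olfactory receptor gene, was the one without shared reads, and had 12.7, 15.4 and 5.0 CPM at 24 h, against 23.0, 33.5 and 31.2 CPM at 6 h.

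Of the 12 largest rises, 11 were uniquely counted. These were WDR72, NOL12, RNF214, SDR39U1, HSPG2, CDH4, SCRN2, PTGES, HDDC3, HSPA8 and ACAA1, with log2 changes of 0.76 to 1.32. Of these only HSPA8 was also called higher by edgeR when uniquely counted genes were tested by themselves in the same libraries. ACAA1, for example, had an adjusted p of 0.032 here and 0.39 there (edgeR). HSPG2, which encodes the basement membrane proteoglycan perlecan, had 36.2, 56.7 and 34.9 CPM at 24 h, against 30.9, 22.4 and 19.5 CPM at 6 h. WDR72 had 22.2, 14.2 and 21.8 CPM at 24 h, against 9.5, 7.2 and 7.2 CPM at 6 h (log2 change 1.32 ± 0.32 SE, adjusted p = 0.015, edgeR). The rule took only genes whose 24 h and 6 h libraries did not overlap, for the rises and the falls alike. The separation of HSPG2 and WDR72 was thus set by the choice.

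The uniquely counted genes were also tested by themselves, with scaling computed on them alone. This fit was added after the results were seen. Over the 6 vehicle libraries it called 4 of 5874 genes (0.0681%), 3 of them lower (0.0511%), ANGPTL4 and PMEPA1 included, and HSPA8 higher (0.017%) at 24 h. The median log2 change of the genes tested was 0, and at an unadjusted p under 0.05, 211 were higher (3.59%) and 264 lower (4.49%). Over all 18 libraries the uniquely counted genes gave 1 call (0.0154%), ANGPTL4, and over the 16 libraries 6 calls (0.0897%), the same 4 genes with PTGES higher and the lincRNA AL160272.1 lower. In total RNA from a culture, fewer cells of a type and less RNA per cell cannot be told apart for any of these genes. Changes given below are from the fit of uniquely counted genes over the 6 vehicle libraries unless another is named, and CPM values are on the scale of the 18 libraries.

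ANGPTL4 fell at 24 h. It encodes a secreted protein that inhibits lipoprotein lipase and is known as a target of PPAR, hypoxia and TGF-beta signalling, and it lies on chromosome 19 (8363289 to 8374373, GRCh38). Its level was 55.9, 64.7 and 54.9 CPM at 24 h, against 140.4, 143.7 and 114.4 CPM at 6 h. Every 24 h library lay far below every 6 h library, with means of 58.5 ± 5.4 CPM at 24 h and 132.8 ± 16 CPM at 6 h (SD, n = 3 each). The log2 change was −1.24 ± 0.15 SE (adjusted p = 1.3e-04, edgeR). In the fit over all genes and 18 libraries it was −1.18 with an adjusted p of 0.16. At 72 h the mean was 72.5 ± 14.0 CPM.

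PMEPA1 fell at 24 h in this fit. It encodes a membrane protein that restrains TGF-beta and androgen receptor signalling, on chromosome 20 (57648392 to 57711536). Its level was 43.2, 43.2 and 34.3 CPM at 24 h, against 69.0, 75 and 69.6 CPM at 6 h. The groups were separate, and the log2 change was −0.88 ± 0.17 SE (adjusted p = 0.045, edgeR). DESeq2 on the same genes and libraries gave PMEPA1 no adjusted p, as it did 4441 of the 5874, and so made no call. The call was lost without any one of the libraries other than 24 h replicate 2, with adjusted p of 0.0501 to 0.39 (edgeR), and the log2 change then lay between −0.94 and −0.77.

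HSPA8 rose at 24 h. It encodes the constitutive cytosolic HSP70 chaperone, and it lies on chromosome 11 (123057489 to 123063230). Its level was 1983, 1892 and 2187 CPM at 24 h, against 1224, 1245 and 1188 CPM at 6 h. The groups were far apart for so abundant an mRNA, with means of 2020 ± 151 CPM at 24 h and 1219 ± 29 CPM at 6 h (SD, n = 3 each). The log2 change was 0.67 ± 0.10 SE (adjusted p = 8.0e-04, edgeR). Without 6 h replicate 3 the adjusted p was 0.067 (edgeR).

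Several genes missed the threshold of that fit and passed in others. PTGES, which encodes the microsomal prostaglandin E synthase, had 272.6, 249.7 and 368.0 CPM at 24 h, against 186.3, 187.5 and 149.5 CPM at 6 h (log2 change 0.71, adjusted p = 0.051, edgeR). DESeq2 gave PTGES an adjusted p of 0.0071 in the same libraries. CDH4, which encodes R-cadherin, had 89.0, 116.5 and 132.2 CPM at 24 h, against 61.1, 65.4 and 67.6 CPM at 6 h. KRT81, a hair keratin gene, had 574.4, 664.6 and 643.0 CPM at 24 h, against 473.4, 427.0 and 396.6 CPM at 6 h. Both passed in the fit of uniquely counted genes over the 9 vehicle libraries, which called 8 of 6311 (0.127%; adjusted p = 0.045 each, edgeR). All 3 genes were higher in every 24 h library than in every 6 h library.

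DESeq2 on the uniquely counted genes of the 6 vehicle libraries also called 2 genes lower that edgeR did not. HNRNPDL, an hnRNP gene, had 187.5, 191.1 and 144.7 CPM at 24 h, against 259.3, 228.3 and 255.5 CPM at 6 h (log2 change −0.56, adjusted p = 0.037, DESeq2). HSP90B1, which encodes the endoplasmic reticulum chaperone GRP94, had 152.5, 77.1 and 114.8 CPM at 24 h, against 182.4, 178.8 and 200.9 CPM at 6 h (log2 change −0.77, adjusted p = 0.029, DESeq2). The groups were separate in both genes, and HSP90B1 varied most among the 24 h libraries.

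**Figure D3:**
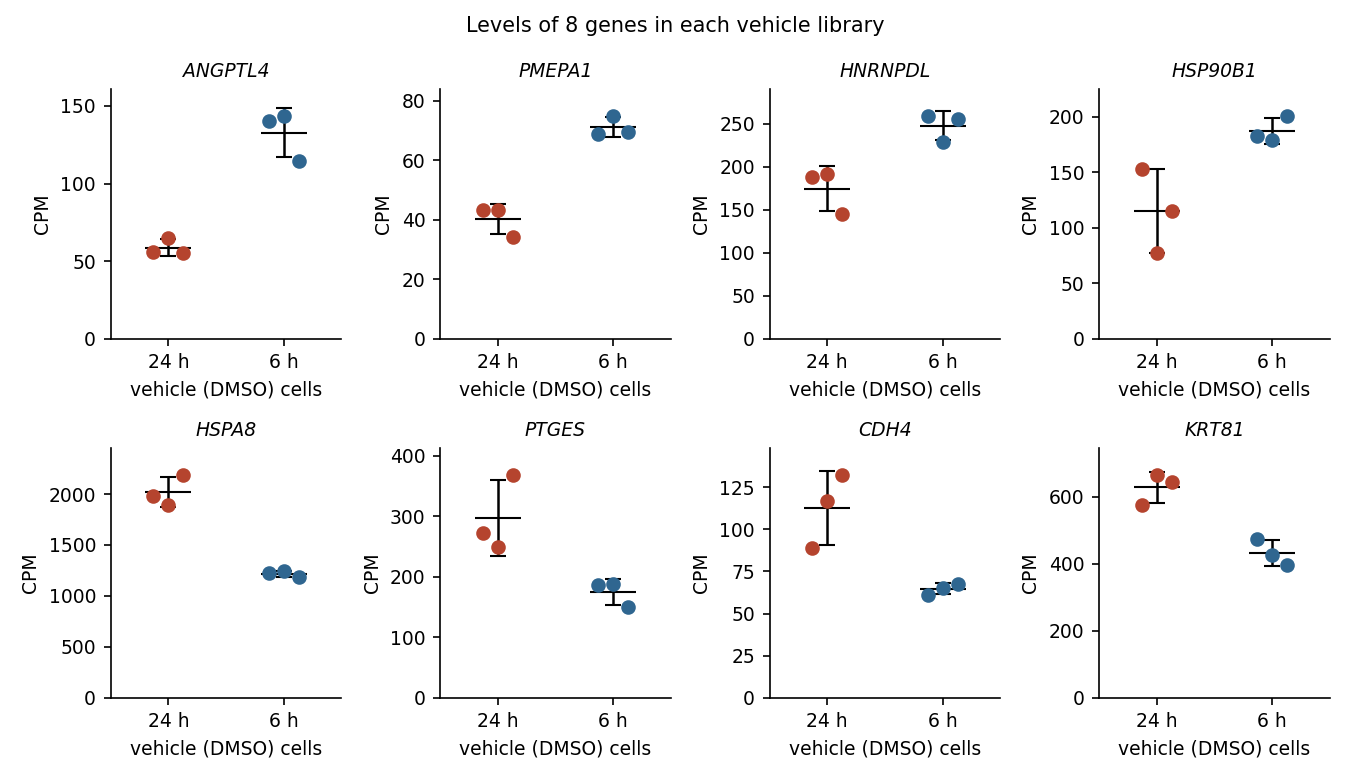
Levels in CPM (vertical axes, from 0) of 8 uniquely counted genes in vehicle LM2 libraries at 24 h (red) and 6 h (blue). Points are libraries, and lines with bars are means with SD (n = 3 each). The upper 4 genes are lower at 24 h in every library (ANGPTL4 58.5 against 132.8 CPM on average) and the lower 4 are higher (HSPA8 2020 against 1219 CPM).

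Gene lists were read by their counts and medians. The lists were written with earlier results of these data known, so these counts describe the lists and are not a separate test. None of the genes of the integrated stress response and amino acid supply list was called, yet 14 of its 24 uniquely counted genes (58.3%) were lower at an unadjusted p under 0.05 and 0 were higher, beside 4.49% and 3.59% of all genes tested. The list's median log2 change was −0.34 beside 0 for all genes, and 22 of the 24 lay below 0. In the fit over all genes and 18 libraries, 5 of 27 (18.5%) were lower at that threshold. The list's median there was −0.31 beside 0.02 for all genes. In that fit 3 were lower with median-of-ratios scaling and 0 with library totals. Library totals gave the list a median of −0.15 beside 0.16 for all genes. For uniquely counted genes over the 6 vehicle libraries, library totals gave 15 of 24 lower. The median was then −0.37 beside −0.02 for all genes. With TMM scaling of uniquely counted genes, 9 to 14 were lower when a vehicle library was left out.

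The regulators of the response lay lower together. ATF4, its central transcription factor, had 1078, 1305 and 1183 CPM at 24 h, against 1542, 1373 and 1558 CPM at 6 h (log2 change −0.39 ± 0.10 SE, unadjusted p = 7.6e-04, adjusted p = 0.19, edgeR). DDIT3, the transcription factor CHOP, had 109.3, 110.4 and 101.0 CPM at 24 h, against 142.7, 111.7 and 145.0 CPM at 6 h. CEBPB, a partner of ATF4, had 181.1, 140.0 and 223.9 CPM at 24 h, against 246.6, 258.6 and 231.4 CPM at 6 h. In each of these genes the 24 h libraries lay below the 6 h libraries, in DDIT3 by a narrow margin. TRIB3, a pseudokinase that restrains ATF4, had a log2 change of −0.56 ± 0.22 SE, and ATF5 one of −0.36 ± 0.17 SE with overlapping libraries.

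Among the targets, SESN2, which encodes a leucine sensor that restrains mTORC1, had 57.8, 74.6 and 62.4 CPM at 24 h, against 110.2, 79.8 and 100.1 CPM at 6 h (log2 change −0.63 ± 0.16 SE). GDF15, a stress-induced secreted factor, had 18.4, 17.3 and 15.0 CPM at 24 h, against 30.9, 30.3 and 24.1 CPM at 6 h (log2 change −0.80 ± 0.24 SE). CHAC1, which degrades glutathione, had 8.9, 8.6 and 6.9 CPM at 24 h, against 21.4, 19.2 and 8.5 CPM at 6 h (log2 change −1.03 ± 0.37 SE). The groups were separate for SESN2 and GDF15, while for CHAC1 one 6 h library lay within the range of the 24 h libraries.

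Among the importers of the list, SLC7A11, the cystine importer, had 43.2, 22.8 and 28.1 CPM at 24 h, against 47.6, 56.7 and 45.5 CPM at 6 h (log2 change −0.73 ± 0.22 SE). SLC38A1, a glutamine importer, had 163.9, 135.6 and 175.9 CPM at 24 h, against 238.7, 202.7 and 187.2 CPM at 6 h (log2 change −0.46 ± 0.14 SE). SLC7A1, an importer of arginine and lysine, had 169.0, 146.7 and 152.2 CPM at 24 h, against 222.8, 202.7 and 174.2 CPM at 6 h (log2 change −0.41 ± 0.13 SE). The 24 h libraries lay below the 6 h libraries in all 3 genes. SLC3A2, the partner chain of SLC7A11, overlapped between the groups (log2 change −0.32 ± 0.14 SE), as did the leucine importer SLC7A5 (−0.14 ± 0.12 SE).

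PSAT1, an enzyme of serine synthesis, had a log2 change of −0.27 ± 0.13 SE. PHGDH, the first enzyme of that route, was at 0.09 ± 0.21 SE and PSPH, its last, at 0.15 ± 0.34 SE, the only 2 genes of the list above 0. PPP1R15A, which encodes the phosphatase subunit GADD34 that ends the response, was at −0.04 ± 0.13 SE.

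**Figure D4:**
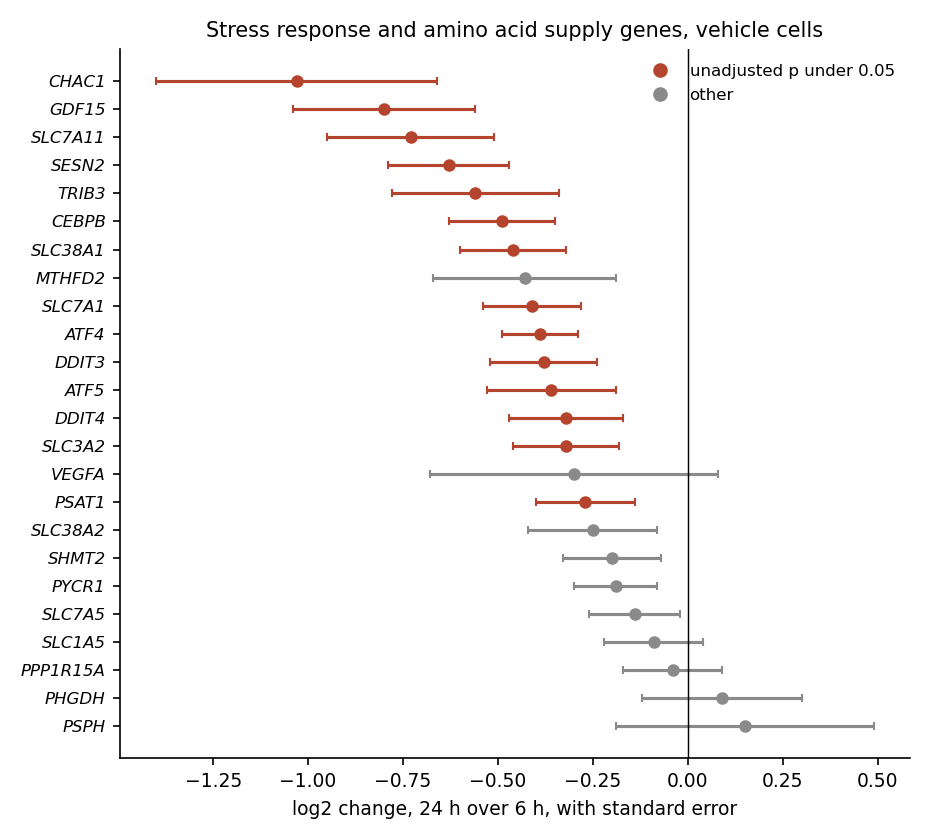
Log2 change (24 h over 6 h, horizontal axis) with its standard error for the 24 uniquely counted genes of the integrated stress response and amino acid supply list, in the fit of the 6 vehicle libraries. Red points have an unadjusted p under 0.05 and grey points do not. Of the 24 points 22 lie left of 0, with CHAC1 at −1.03 the farthest.

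Promoters of these genes were searched for the letters TGATGNAA on both strands, the form of the site that ATF4 and C/EBP proteins are known to bind, in RefSeq promoters (GRCh38.p14, 250 bases before to 50 after a gene's start). The letters were present in 1270 of 35116 promoters (3.62%) and in 5 of the 31 promoters of list genes. By gene, 4.46% of all genes and 5 of the 19 list genes with a promoter held them. These were SLC1A5 and 4 of the genes lower at an unadjusted p under 0.05. Windows of 30 bases around the match in those 4 are given 5′ to 3′ on the gene's strand, with the match in capitals, which reads on the reverse strand in CHAC1 and SLC3A2.
CHAC1: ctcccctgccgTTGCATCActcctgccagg
SLC38A1: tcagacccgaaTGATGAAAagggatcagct
SLC7A1: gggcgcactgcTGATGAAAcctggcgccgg
SLC3A2: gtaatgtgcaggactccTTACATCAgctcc

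The promoters lie at chr15:40953221-40953520 (plus strand), chr12:46266467-46266766 (minus), chr13:29595639-29595938 (minus) and chr11:62881449-62881748 (plus), in the order of the windows. A match describes the letters only, and binding was not measured.

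On the TGF-beta response list, 4 of 12 uniquely counted genes (33.3%) were lower at an unadjusted p under 0.05 and 0 higher, with a median log2 change of −0.31. Of the 2 called, PMEPA1 is described above. SKIL, which encodes the SMAD repressor SnoN, had 5.7, 3.1 and 5.0 CPM at 24 h, against 8.7, 9.6 and 13 CPM at 6 h (log2 change −1.24 ± 0.42 SE, unadjusted p = 0.0062). SMAD3, a signal carrier of the pathway, had 33.7, 50.6 and 32.4 CPM at 24 h, against 52.3, 51.1 and 49.4 CPM at 6 h (log2 change −0.44 ± 0.20 SE). The libraries were separate for SKIL and overlapped for SMAD3, and neither passed the adjusted threshold.

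On the heat shock list, HSPA8 was the 1 gene called of 18, and HSPA1B, a stress-induced HSP70 gene, was the other above 0 at an unadjusted p under 0.05. HSPA1B had 34.3, 30.8 and 41.8 CPM at 24 h, against 23.8, 27.1 and 18.2 CPM at 6 h (log2 change 0.58 ± 0.23 SE, unadjusted p = 0.018). HSPA1B has a near-identical copy, HSPA1A, so its level is uncertain. The median of the list was 0.08. The letters GAANNTTC, a form of the heat shock element, were present in 2377 of 35116 promoters (6.77%) and in 10 of the 27 promoters of list genes. By gene, 8.21% of all genes and 9 of the 17 list genes with a promoter held them, HSPA8 and HSPA1B included. Windows around the match are given with the match in capitals, for the promoters at chr11:123062087-123062386 (minus strand) and chr6:31827488-31827787 (plus strand).
HSPA8: ggggcgagcttGAAAGTTCcagaacgctgc
HSPA1B: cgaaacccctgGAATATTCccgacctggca

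Most cytosolic ribosomal protein and oxidative phosphorylation genes had small positive values. Other lists of protein synthesis did not share this. The median was −0.14 for aminoacyl-tRNA synthetases and −0.08 for ribosome biogenesis and MYC. Of 34 uniquely counted cytosolic ribosomal protein genes, 8 (23.5%) were higher at an unadjusted p under 0.05 and 0 lower. The shares of all genes tested were 3.59% and 4.49%. None of the 34 passed the adjusted threshold, and 29 lay above 0, beside 2981 of all 5874. Their median log2 change was 0.09. RPS25, a small subunit protein gene, had 986, 1031 and 1072 CPM at 24 h, against 833, 770 and 850 CPM at 6 h (log2 change 0.27 ± 0.10 SE). DESeq2 over all genes and the 18 libraries called RPS25 higher (log2 change 0.36, adjusted p = 0.0041). RPLP1, a gene of the ribosomal stalk, had 3147, 3352 and 3637 CPM at 24 h, against 2738, 2706 and 2818 CPM at 6 h (log2 change 0.24 ± 0.09 SE). The libraries were separate in both genes. At that threshold 1 of 35 was higher without 6 h replicate 1, and 2 of 35 without 6 h replicate 2. Of 33 nuclear-encoded oxidative phosphorylation genes, 28 lay above 0 and 3 were higher at an unadjusted p under 0.05, with a median of 0.12.

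The p53, fatty acid, NRF2 and G2/M lists gave no call in this fit (edgeR). At an unadjusted p under 0.05 the p53 list had 4 of 12 genes lower (33.3%), SESN2 and GDF15, which the stress list also holds, with GADD45B and PLK2. Its median was −0.22, and −0.25 with library totals as the scale of the same fit. With library totals over all genes and 18 libraries, 0 of 16 were lower. The list's median there was 0.03 beside 0.16 for all genes. On the fatty acid list, 3 of 12 were lower (25%), ACSL3, FADS2 and SCD, with log2 changes of −0.53, −0.44 and −0.43. On the NRF2 list TALDO1, an enzyme of the pentose phosphate route, had 357.7, 348.3 and 444.1 CPM at 24 h, against 279.9, 261.0 and 262.0 CPM at 6 h, and DESeq2 over the 18 libraries called it (log2 change 0.55, adjusted p = 0.013). FTL, the ferritin light chain, had 766.3, 838.5 and 821.4 CPM at 24 h, against 551.1, 624.9 and 596.2 CPM at 6 h, and SLC7A11 of the same list was lower. The G2/M and mitosis list had 1 of 30 genes higher and a median of −0.02. The G1/S and DNA replication list, also without a call, had 3 of 27 genes higher (11.1%), 0 lower and a median of 0.14. Without 6 h replicate 1, 1 of its 27 genes was higher.

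The later vehicle time shows which of these levels held. The comparisons of 72 h with 6 h and of 72 h with 24 h share libraries with the comparison above, so their values are given side by side and not as separate support. Over the 18 libraries edgeR called 339 genes between 72 h and 6 h (4.22%) and 216 between 72 h and 24 h (2.69%). PMEPA1 averaged 71.2 ± 3.3, 40.2 ± 5.1 and 144.4 ± 20.0 CPM at 6, 24 and 72 h (SD, n = 3 each), and was called higher at 72 h than at 24 h (log2 change 1.84). PMEPA1 thus ended above its 6 h level (log2 change 1.02, adjusted p = 0.0022, edgeR).

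PTGES averaged 174.5, 296.8 and 2161 CPM at 6, 24 and 72 h and was called higher at 72 h than at 6 h (log2 change 3.63). HSPA8 averaged 1219, 2020 and 1451 CPM at the 3 times, and its log2 change at 72 h from 6 h of 0.25 did not pass the test (adjusted p = 0.58, edgeR). ANGPTL4 was lower at 72 h than at 6 h (log2 change −0.87, adjusted p = 0.020, edgeR). The median log2 level of the stress list relative to 6 h was −0.27, −0.31 and −0.29 in the 24 h libraries and −0.68, −0.51 and −0.47 in the 72 h libraries, beside 0.07, 0.03 and −0.06 in the 6 h libraries. Not every gene of the list shared this, and the log2 difference of 72 h from 6 h was 2.04 for DDIT4, 1.29 for VEGFA and 0.89 for GDF15. The ribosome biogenesis and MYC list lay at −0.82, −0.75 and −0.62 in the 72 h libraries and within 0.12 of 0 in the 24 h libraries.

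**Figure D5:**
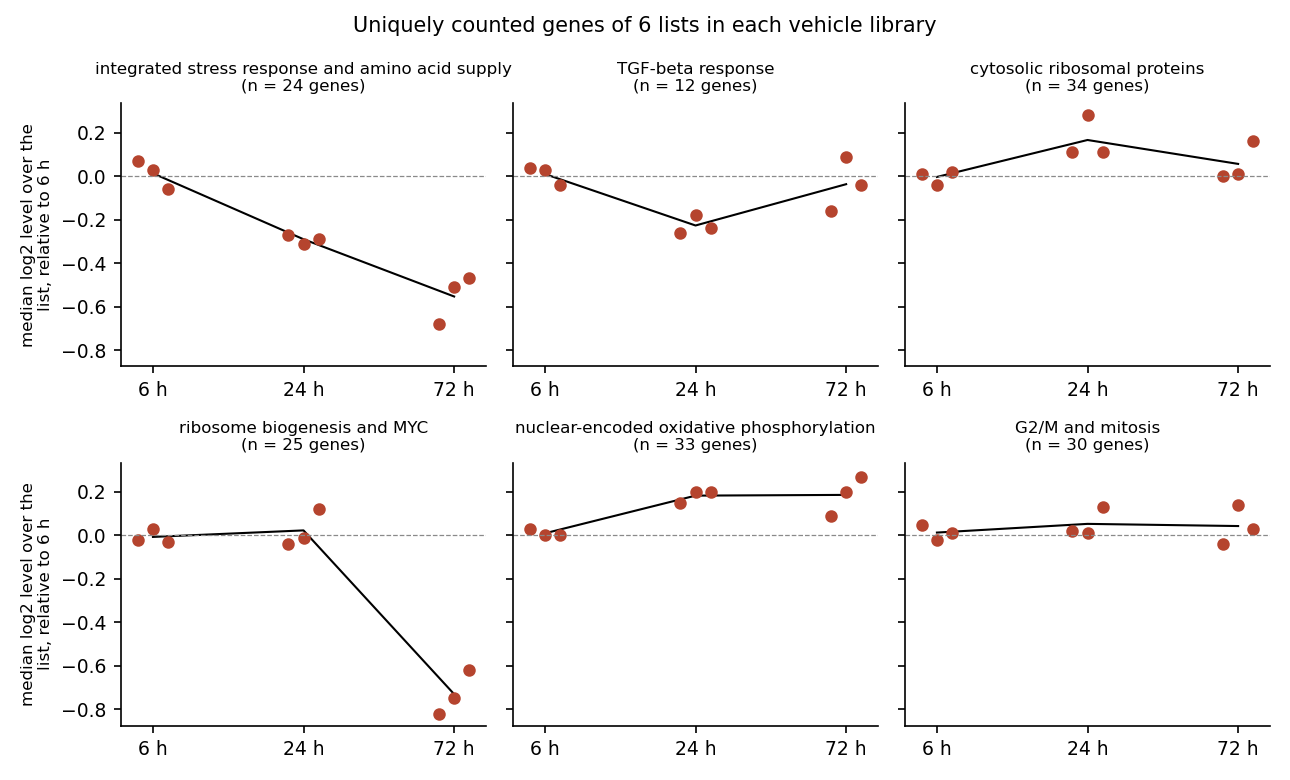
Median log2 level of the uniquely counted genes of 6 lists in each vehicle library (points), relative to the mean of the 6 h libraries (dashed line at 0), at 6, 24 and 72 h; lines join the means. The stress list lies near −0.3 at 24 h and lower at 72 h, while the ribosome biogenesis list lies near 0 at 24 h and between −0.82 and −0.62 at 72 h.

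The change between 6 and 24 h differed in cells that had received T4. A test of the difference, the vehicle change minus the T4 change, called 731 of 8035 genes (9.1%), 149 above 0 (1.85%) and 582 below (7.24%; edgeR, 18 libraries); without T4 6 h replicate 3 it called 1127. ANGPTL4 averaged 97.6 ± 3.6 CPM at 24 h and 37.8 ± 10.3 CPM at 6 h in T4 cells (SD, n = 3 each), the reverse of its order in vehicle cells (difference −2.58 ± 0.31 SE, adjusted p = 5.3e-05, edgeR). PMEPA1 averaged 53.3 CPM at 24 h and 33.5 CPM at 6 h in T4 cells (difference −1.52, adjusted p = 0.0019, edgeR). HSPA8 averaged 1693 CPM at 24 h and 1279 CPM at 6 h in T4 cells. Its difference from vehicle of 0.33 ± 0.26 SE did not pass the test (adjusted p = 0.53, edgeR). The T4 6 h means and the differences of these genes include T4 6 h replicate 3, which stood apart (TMM factor 0.499).

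The use of alternative 3′ ends was compared as the log2 ratio of the distal to the proximal of a gene's 2 most used sites. Of 636 genes, 0 passed an adjusted p of 0.05 (0%; edgeR), and 39 (6.13%) had an unadjusted p under 0.05, 18 toward the distal and 21 toward the proximal site. With the 6 vehicle libraries alone 0 passed and 72 (11.3%) had an unadjusted p under 0.05; limma's diffSplice gave 0 of 806 genes and 40 at an unadjusted p under 0.05. The median distal share was 54.4, 52.9 and 54.0% in the 24 h libraries and 52.9, 54.6 and 54.5% in the 6 h libraries, so the groups overlapped.

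Genes with a shared site made up most of the small unadjusted p-values. Of 108 genes with 1 shared site, 26 (24.1%) had an unadjusted p under 0.05, beside 12 of 511 genes (2.35%) with no shared site. The 5 smallest p-values belonged to CDT1, ERGIC3, RPS10-NUDT3, RNF149 and PDCD6IP, each with an adjusted p of 0.77 (edgeR), and only PDCD6IP had no shared site. PDCD6IP, which encodes the endosomal sorting protein ALIX, had 44.6, 62.5 and 52.5% of its reads at the distal site at 24 h, against 24.2, 36.2 and 22.9% at 6 h, from 40 to 74 reads a library. Its groups did not overlap (log2 change of the ratio 1.53 ± 0.53 SE). CDT1, which licenses replication origins, had 7.9, 11.8 and 11.5% at the distal site at 24 h, against 5.7, 1.4 and 3.5% at 6 h (1.70 ± 0.46 SE).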

How the data were processed

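The authors deposited estimated counts (expected counts) of reads for entries named by a transcript or a position, here whole in 98.3 to 98.5% of the entries of each of 18 libraries. The submitters' processing notes name Salmon 0.14.1 and the build hg38. Ends were matched to GENCODE 29 (66115 of 71604 transcript ends), and position entries went to the gene whose transcripts they are listed with. Counts were summed per gene, rounded, filtered with filterByExpr, scaled by TMM and tested with edgeR 4.0.16 (quasi-likelihood; limma 3.58.1, R 4.3.3) in one fit of the 18 vehicle and T4 libraries at 6, 24 and 72 h, with Benjamini-Hochberg adjustment over all genes; DESeq2 1.42.0 was an alternative. Reads without molecular identifiers are not independent molecules. Site use was an interaction test on sites with a mean of at least 10 counts; 170 genes whose sites could not be ordered were left out. Both steps were run on simulated counts, drawn independently for each gene or site. No reads were shared among entries there, so the simulation did not cover shared reads. Genes of the T4 difference were named by a rule (the smallest p in each direction); as 0 genes were called for time, the rule for the largest changes was applied to the 6 vehicle libraries. The members and lists were chosen with earlier results of these data known. Equal replicate numbers did not pair the samples. Some called genes and sequences are not reported here.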

Additional observations from a re-analysis of the deposited data

Results flagged for a closer look

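For 12 genes the change between 6 and 24 h differed between vehicle and T4 cells by a test of the difference itself (log2 vehicle change minus T4 change, edgeR over 18 libraries). They were the 6 with the smallest p in each direction. The differences above 0 were 3.21 for FLJ37453 (adjusted p = 5.6e-05), 2.10 for ARGLU1, 1.49 for UQCC3, 1.92 for AHNAK, 2.21 for FOXC1 and 1.83 for HDDC3. Those below 0 were −4.02 for FAM83G (adjusted p = 2.8e-06), −2.93 for SETD5, −2.98 for CDK12, −3.11 for HRH1, −2.95 for CCNF and −4.18 for PATZ1. The adjusted p of the others lay between 2.8e-06 and 0.0015.

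In most of these genes the vehicle cells held nearly one level and the T4 cells did not. AHNAK, which encodes a giant scaffold protein, averaged 161.2 CPM at 24 h and 178.6 CPM at 6 h in vehicle cells, and 194.0 CPM at 24 h and 817.4 CPM at 6 h in T4 cells. CCNF, which encodes cyclin F, averaged 135.4 CPM at 24 h and 144.5 CPM at 6 h in vehicle cells, and 160.2 CPM at 24 h and 23.6 CPM at 6 h in T4 cells. HDDC3 had the largest vehicle change of the 12, 0.76 on the log2 scale, with 46.3 CPM at 24 h and 27.5 CPM at 6 h. Without the T4 libraries that stood apart (T4 6 h replicate 3 and T4 72 h replicate 2) the 12 differences kept their signs, with 1.64 for AHNAK and −4.44 for PATZ1.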

How the results depend on the processing

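The count of genes called between 24 h and 6 h depended on the libraries, genes and filter: it was 0 as fitted, 105 with no filter, 1 with a mean of at least 50 counts, 3 with DESeq2 and 5 with 16 libraries. With the 6 vehicle libraries it was 617, 616 with median-of-ratios scaling, 664 with library totals and 573 with DESeq2. Uniquely counted genes gave 1 with 18, 6 with 16, 8 with 9 vehicle and 4 with 6 vehicle libraries, and there 4 with median-of-ratios scaling, 4 with library totals, 8 with DESeq2 and 6 with limma-voom. Leaving out 1 vehicle library gave 0 over all libraries and 1 (without 6 h replicate 3) to 38 (without 24 h replicate 2) in the last fit.

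Genes of the lists called numbered 0 as fitted, 1 with no filter, 3 with DESeq2, 2 with 16 libraries, 20, 21, 47 and 20 with the 6 vehicle libraries (TMM, median-of-ratios, totals, DESeq2), and for uniquely counted genes 3 with 16, 9 and 6 libraries, 3 with median-of-ratios or totals, 4 with DESeq2, 3 with limma-voom and 0 to 12 with 1 library left out.

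The T4 difference gave 731 calls, 1127 without T4 6 h replicate 3, 1588 for uniquely counted genes over 16 libraries and 514 to 1127 with 1 library left out. The comparison of 72 h with 6 h gave 339, 545 with DESeq2, 887 with 16 libraries and 157 to 330 with 1 vehicle library left out (726 without T4 6 h replicate 3); that of 72 h with 24 h gave 216, 119 with totals, 397 with DESeq2, 741 with 16 libraries and 110 to 193 with 1 vehicle library left out (547 without T4 6 h replicate 3). The causes were not tested.

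Library totals moved the median of all genes in the fit over 18 libraries to 0.164. Of the genes named, MAP1B changed sign under 1 alternative, 0.12 with ends of the same transcript version only (−0.20 otherwise, neither past the test). Site use gave 0 calls under every alternative run. Same-numbered libraries did not deviate together (correlations 0.021, 0.005 and 0.004). With the replicate block the calls were 0 over 18 libraries, 597 over 6, 3 for uniquely counted genes over 6 (PMEPA1 lost) and 0 for site use; for the lists 0, 18 and 2. Sites with few reads limit the precision of site use.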

Other observations

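One vehicle library at 24 h differed from the others in a small set of genes, a pattern chosen after its values were seen. Among 2515 uniquely counted genes with at least 30 CPM in both other 24 h libraries, 20 were below 0.5 times both of them in replicate 2, against 0 in replicates 1 and 3 and 2 in each 6 h library. CNN3, which encodes an actin-binding calponin, had 87.1, 9.9 and 61.1 CPM in the 24 h libraries and 94.9 to 101.5 CPM in the 6 h libraries. MYL12B, a myosin regulatory light chain gene, had 164.6, 21.6 and 104.2 CPM in the 24 h libraries. EPHA2 and TRAM2 were also among the 20. The part of this library in the comparison is given by the fits that leave it out.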
